A study of Saccharomyces cerevisiae with 8 samples.

Results

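The genes described here are those of Saccharomyces cerevisiae named for the synthesis of amino acids. They were chosen by their R64 standard symbols alone, as every target whose symbol is ARG, HIS, LEU, LYS, TRP, ILV, ARO, SER, THR or HOM followed by a number. The rule found 61 of the 6713 targets. HIS3, LEU2 and LYS2, marker genes of the strain, were set aside from all counts, medians and shares, which left 58 members. HOM genes were placed under THR, because threonine is made from homoserine. The members were 10 ARG, 10 ARO, 6 HIS, 5 ILV, 5 LEU, 8 LYS, 4 SER, 5 THR and 5 TRP genes, and all 58 passed the filter on low counts.

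Poly(A) RNA was sequenced in 8 libraries, 2 for each of 4 groups. All were of BY4743, a diploid laboratory yeast, with a genotype given as wild-type. Prion libraries came from untreated cells with natural [SMAUG+], a prion of the RNA-binding protein Vts1, and cured libraries from cells after selective curing of [SMAUG+]. For each state, a saturated culture was sampled after 48 h in preSPO medium and again 14 h after transfer to SPO (sporulation) medium. The labels give neither the amino acids in the media nor the number of independent curing events. BY4743 has no working HIS3, LEU2 or URA3 and is heterozygous for LYS2 and MET17, so its cells depend on supplied histidine, leucine and uracil in every group. The cured preSPO libraries held 0 and 1 counts of MET17, which is at odds with an intact copy of it in those cells. The cause was not tested. The design text of the series instead names overexpression of VTS1 and a deletion of it, which no sample label mentions, and the groups here follow the sample labels.

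Yeast makes each of these amino acids through a chain of enzymes that starts from a precursor of central metabolism, and the first enzyme of a chain is often inhibited by its end product. When amino acids run short, the transcription factor Gcn4 raises the transcription of enzymes of many chains at once, a response known as general amino acid control. Factors of single pathways, such as Leu3, Lys14, Aro80 and the complex of Arg80 and Arg81, act beside it.

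Estimated counts summed to between 4650288 and 71684771 per library. MET17 went against the labels in SPO medium, with 1363 and 1 counts in prion replicates 1 and 2 and 447 and 13 in cured replicates 1 and 2, whereas preSPO libraries held 3207 and 3867 (prion) and 0 and 1 (cured). The libraries in doubt are therefore prion SPO replicate 2 and cured SPO replicate 1, calls and counts on SPO medium that change without them are given beside the results, and prion and cured always mean the label. LEU2 had 0 to 3 counts in each library. The 6 markers of haploid cells summed to 31.2 to 65.7 CPM (counts scaled to library size, with TMM factors), with MFA1 at 0 throughout. The 8 sporulation markers summed to 103 to 113 CPM in preSPO and 1446 to 2699 CPM in SPO libraries. SPS100, a late sporulation gene, made up 77.8 to 90.4% of that sum in SPO libraries, and the other 7 summed to 95.4 to 108 and 260 to 369 CPM. In CPM, the scale on which members are compared below, each of the 8 markers was higher in every SPO library than in any preSPO library. In TPM, IME2, NDT80, SPO11, HOP1, ZIP1 and SMK1 overlapped between the media, and IME1 and SPS100 did not. On TPM the median over all genes itself moved lower in SPO medium, as given below. TAR1, a gene within the ribosomal DNA, held 3.18% to 8.22% of the counts in preSPO and 10.6% to 14.8% in SPO libraries.

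The first comparison asked how the pathways answered SPO medium in each state. Most members fell. Of the 58 members, 38 fell and 7 rose in prion libraries, where 27.1% of all 6346 genes tested fell and 26.2% rose. In cured libraries 39 members fell and 6 rose, where 28.6% of all genes fell and 28.6% rose. The members' median log2 fold change was -1.17 in prion and -0.70 in cured libraries, beside medians over all genes of 0.0042 and 0.032. A call here is an adjusted p under 0.05 by edgeR's quasi-likelihood test with Benjamini-Hochberg adjustment over all genes tested, and adjusted p has that meaning wherever no other tool is named. In bulk RNA, fewer cells that make a transcript and less of it per cell cannot be told apart.

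The calls of the states overlapped. They compare different libraries but come from 1 model, whose estimate of the spread draws on all 8 libraries, so they are not independent. Of the members that fell, 33 did so in both states, 86.8% of the prion list and 84.6% of the cured list. Over all genes, 1398 fell in both states, 81.3% of those that fell in prion and 76.9% of those that fell in cured libraries. LEU4, LYS20, TRP1 and ILV6 rose in both. ARG82, HIS6 and SER1 were called higher in prion libraries and ARG3 and ILV5 in cured libraries. No member was called for a difference between the responses, beside 0.0158% of all genes called. Described across the 58 genes, which are not independent replicates and share the libraries of each state, the responses correlated at 0.877 (Pearson) and 0.804 (Spearman).

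**Figure D1:**
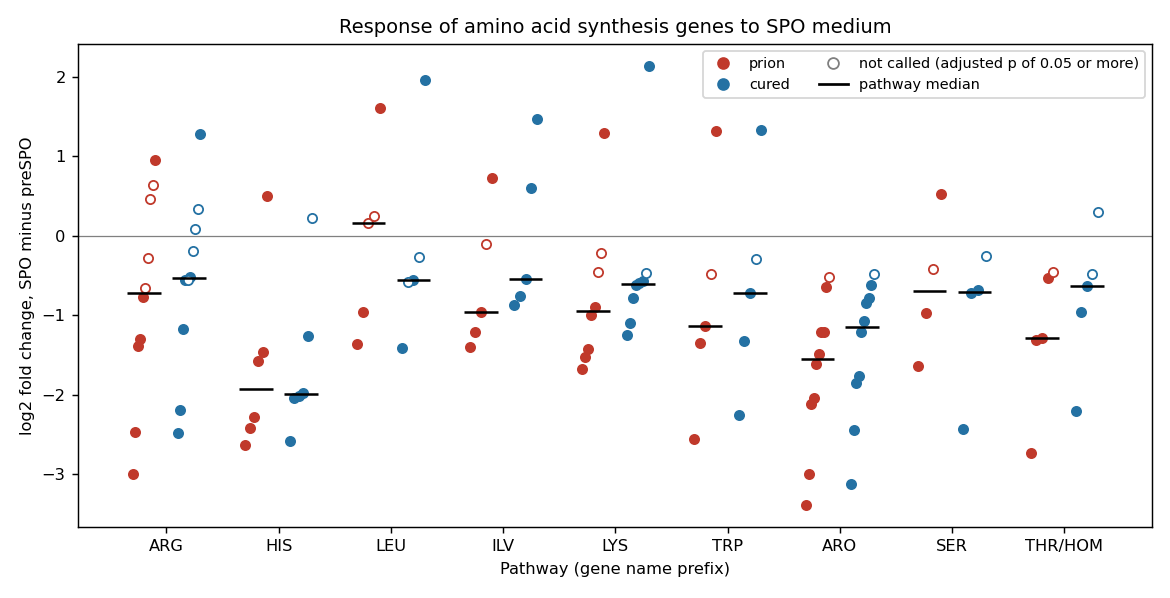
Log2 fold change from preSPO to SPO medium (vertical axis) of each of the 58 members by pathway (horizontal axis), in prion (red) and cured (blue) libraries; filled points were called, open points were not, and black bars are pathway medians. HIS and ARO lie lowest, with medians of -1.92 and -1.54 in prion libraries, and ARG3, ILV6, LEU4, LYS20 and TRP1 are the members above 1 in cured libraries.

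Without both libraries in doubt, 33 members fell and 3 rose in prion and 28 fell and 5 rose in cured libraries. Each SPO group then holds 1 library, which is assumed to vary like the others. The shares of all genes given above are for the fit on all 8 libraries. They do not apply to counts without the libraries in doubt, here or below. LEU4, LYS20 and TRP1 stayed called higher in both states. Among the calls lost were SER1 in prion libraries (adjusted p = 0.263) and ARO3, ARO5, LEU5 and SER2 in cured libraries (adjusted p from 0.0523 to 0.0760), and the others are given with their genes. Without cured SPO replicate 2, the deepest library, 24 members fell in the cured state, and 3 rose in the prion state without prion SPO replicate 2. On log2 TPM (abundance scaled for length and depth, pseudocount 1) the median over all genes moved to -0.56 in prion and -0.89 in cured libraries. Members are read against that shift: their median less that of all genes was -1.11 in prion and -0.72 in cured libraries on TPM, and -1.17 and -0.74 with TMM scaling. On TPM limma called 46 members lower and 1 higher in prion and 49 lower and 2 higher in cured libraries. The shares of all genes given above are for edgeR with TMM scaling and do not apply to these counts. HIS6 and SER1 in prion and ILV5 in cured libraries, called higher with TMM scaling, had log2 fold changes of -0.12, -0.092 and -0.39 on TPM. Of the 4 members that rose in both states, LEU4 alone was called in both by limma on TPM, and LYS20 in the cured state.

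The pathways' medians covered a wide range. HIS genes had the lowest, -1.92 in prion and -1.99 in cured libraries, with 5 of 6 members lower in each state. ARO genes followed with -1.54 and -1.14 and 9 of 10 members lower in each. The medians were -1.28 and -0.63 for THR genes (4 and 3 of 5 lower), -1.14 and -0.72 for TRP genes (3 and 3 of 5), -0.96 and -0.54 for ILV genes (3 and 3 of 5) and -0.95 and -0.61 for LYS genes (5 and 6 of 8). ARG genes had -0.71 and -0.53 (5 and 5 of 10 lower) and SER genes -0.69 and -0.70 (2 and 3 of 4). LEU genes had a median of 0.16 in prion and -0.56 in cured libraries, with 2 of 5 lower in each. Both are the values of LEU5, which is not counted among the synthesis enzymes. The enzymes LEU1, LEU4 and LEU9 had -0.96, 1.61 and -1.37 in prion and -1.41, 1.96 and -0.27 in cured libraries. The pathways' medians were not tested against each other. Without the libraries in doubt, the count of ARO genes that fell was 8 in prion and 5 in cured libraries, with medians of -1.37 and -1.30. ARG genes then had 3 and 3 lower, LYS genes 5 and 4, SER genes 1 and 2, THR genes 3 and 2 and LEU genes 2 and 1. HIS, TRP and ILV genes had as many lower as with all libraries. The THR median moved to -0.88 in prion libraries.

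The medians also moved with the scaling. On TPM they were -2.48 and -2.89 for HIS, -2.10 and -2.05 for ARO and -0.44 and -1.48 for LEU genes. The sign of the LEU median in prion libraries, again the value of LEU5, thus turned. Less the median of all genes the pathway medians on TPM were -1.92 and -2.00 for HIS, -1.54 and -1.16 for ARO and 0.12 and -0.59 for LEU genes. With TMM scaling the same differences were -1.93 and -2.03, -1.55 and -1.18, and 0.16 and -0.59.

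As shares of the members' transcripts, the pathways stood in another order in each medium. The members' summed TPM was 5781 to 7201 in preSPO and 1338 to 2251 in SPO libraries. The TAR1 share moved with the medium as well, and its part in that sum was not tested. ARO genes held 22.3% to 27.8% of that sum in preSPO libraries, the largest share in each of them, and 13.2% to 14.2% in SPO libraries. ARO9 and ARO10, genes of aromatic breakdown, are part of that share. In prion preSPO replicate 1 they held 789 and 291 of the 2001 TPM of ARO genes, where HIS genes had 1191 and ARG genes 1028. The rank is thus not one of aromatic synthesis alone. HIS genes held 14.8% to 18.6% and 7.69% to 8.25%. ILV genes held 7.59% to 9.32% in preSPO and 18.0% to 18.9% in SPO libraries, where theirs was the largest share in each. Their summed TPM was nonetheless lower in SPO libraries, at 439 to 615 in preSPO and 252 to 426 in SPO libraries. LEU genes held 3.16% to 4.51% and 11.1% to 12.8%. ARG genes held 14.3% to 21.0% in preSPO and 10.7% to 12.6% in SPO libraries, LYS genes 9.79% to 10.5% and 12.7% to 14.8%, SER genes 3.31% to 6.21% and 6.75% to 7.89% and TRP genes 5.22% to 5.36% and 5.63% to 6.59%. For these 8 pathways the ranges of the media do not overlap. A larger share is not a higher level. Summed TPM in preSPO and then SPO libraries was 593 to 705 and 198 to 287 for LYS genes. It was 207 to 404 and 95.4 to 152 for SER and 302 to 384 and 84.0 to 131 for TRP genes. For LEU genes the sums overlapped, at 201 to 293 and 149 to 262. THR genes held 9.89% to 10.6% and 8.87% to 10.2%, ranges that overlap.

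**Figure D2:**
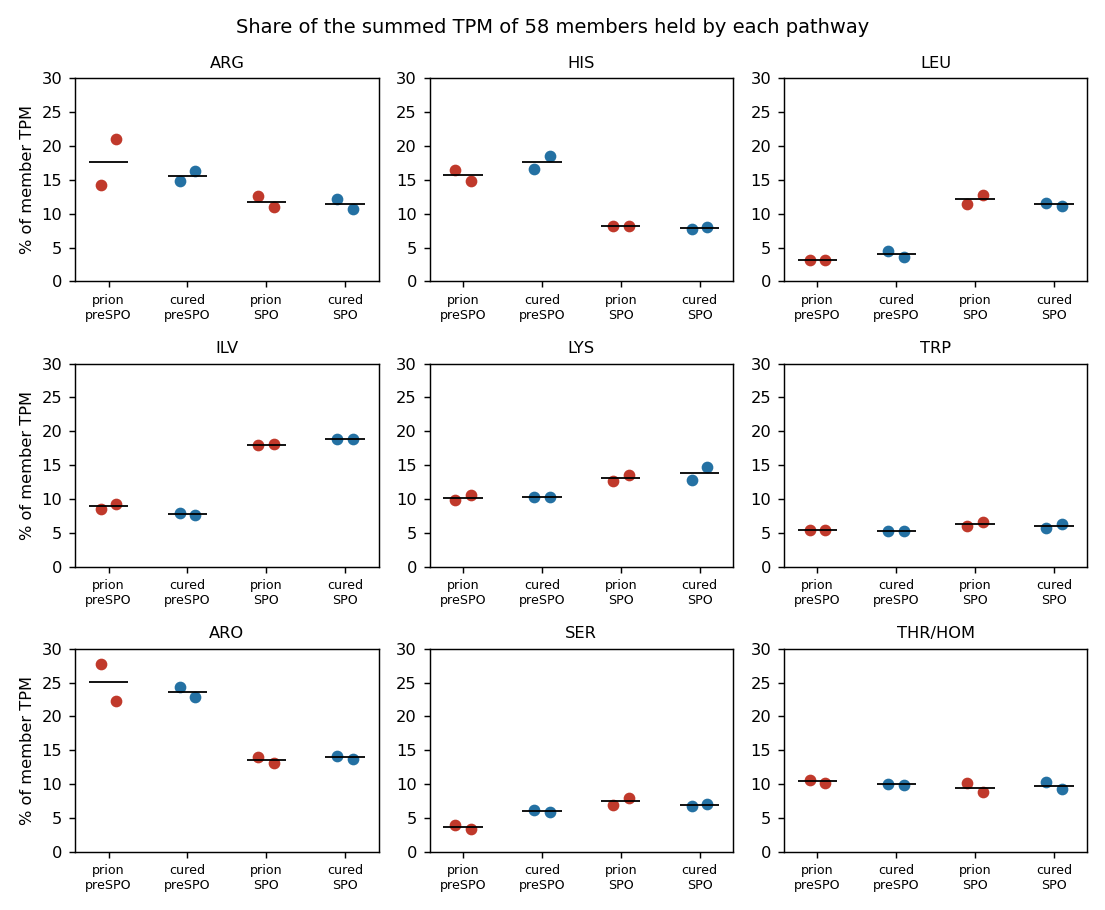
Share (vertical axis, % of the summed TPM of the 58 members) held by each pathway in each library, by state and medium (horizontal axis); red points are prion and blue points cured libraries, and bars are group means of 2 libraries. ARO, HIS and ARG hold smaller shares and ILV, LEU, LYS, SER and TRP larger shares in all 4 SPO libraries than in any preSPO library. The summed TPM of ILV, LYS, SER and TRP genes was nonetheless lower in SPO libraries.

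Promoters are shown for TRP2 and THR4, which fell steeply, and for LEU4 and LYS20, which rose, since TRP2, THR4 and LEU4 hold the same short word and differ in response. Each sequence runs from 250 bases before to 50 bases after the start of the reading frame, 5′ to 3′ on the gene's strand, from the RefSeq genome of build R64. Capitals mark the 6-base core TGACTC or its reverse complement GAGTCA, which is bound by Gcn4 and also by Bas1. The later of the 2 marks in TRP2 lies within its reading frame. Counts of matches below cover the whole window, with its 50 bases of reading frame.
TRP2 (chrV:337699-337998, plus strand): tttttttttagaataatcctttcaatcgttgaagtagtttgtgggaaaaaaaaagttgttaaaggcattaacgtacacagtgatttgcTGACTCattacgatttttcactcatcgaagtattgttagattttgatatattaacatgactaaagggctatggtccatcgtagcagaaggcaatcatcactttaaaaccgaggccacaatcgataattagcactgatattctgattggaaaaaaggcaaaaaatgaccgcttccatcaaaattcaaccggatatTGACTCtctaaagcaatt
THR4 (chrIII:216447-216746, plus strand): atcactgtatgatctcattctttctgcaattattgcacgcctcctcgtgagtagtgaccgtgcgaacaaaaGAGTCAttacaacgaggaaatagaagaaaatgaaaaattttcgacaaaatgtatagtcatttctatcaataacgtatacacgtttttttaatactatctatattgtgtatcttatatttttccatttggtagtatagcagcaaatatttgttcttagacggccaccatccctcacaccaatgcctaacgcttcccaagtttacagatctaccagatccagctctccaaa
LEU4 (chrXIV:426705-427004, minus strand): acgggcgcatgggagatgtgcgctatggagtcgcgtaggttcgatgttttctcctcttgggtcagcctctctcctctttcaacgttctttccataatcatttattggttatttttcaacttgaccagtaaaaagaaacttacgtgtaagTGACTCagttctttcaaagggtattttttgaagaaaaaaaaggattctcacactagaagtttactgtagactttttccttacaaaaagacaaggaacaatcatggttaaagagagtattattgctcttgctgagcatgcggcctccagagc
LYS20 (chrIV:133187-133486, plus strand): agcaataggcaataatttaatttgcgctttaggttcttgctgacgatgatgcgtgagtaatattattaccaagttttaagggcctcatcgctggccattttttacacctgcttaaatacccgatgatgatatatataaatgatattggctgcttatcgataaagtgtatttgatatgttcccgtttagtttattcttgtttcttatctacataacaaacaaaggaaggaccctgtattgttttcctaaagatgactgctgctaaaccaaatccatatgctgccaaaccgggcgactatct

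TGACTC was found on either strand in 30 of the 58 member promoters (51.7%) and in 479 of 6001 protein-coding promoters (7.98%). It was found in 5 of 6 HIS, 4 of 5 ILV and 6 of 10 ARG members and in 1 of 10 ARO members. Members that held it had a median log2 fold change to SPO medium of -1.11 in prion and -0.74 in cured libraries, and members without it -1.17 and -0.62. The form bound by Leu3, CCGG and CCGG with 2 bases of any kind between them, was found in 1 member promoter, that of LEU1, and in 0.133% of all promoters. TCCNNNGGA, the core of Lys14 sites, was found in 4 of 8 LYS members, in 6 of all 58 members and in 3.40% of all promoters. These matches describe letters in a window and were not tested as binding sites.

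GCN4 was not called in either state. It stood at 2485 and 2171 CPM (prion) and 2176 and 2711 CPM (cured) in preSPO medium, and at 1552 and 1590 CPM (prion) and 1627 and 1831 CPM (cured) in SPO medium. Its log2 fold change to SPO medium was -0.57 (SE 0.243, adjusted p = 0.0781) in prion and -0.50 (SE 0.243, adjusted p = 0.109) in cured libraries. GCN4 is known to be controlled mainly in translation, which RNA levels do not show.

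LEU4 and LYS20 encode enzymes that open their chains. LEU4 (YNL104C, chromosome XIV, 424895 to 426754) encodes the main alpha-isopropylmalate synthase, which commits carbon to leucine. It stood at 264 and 355 CPM (prion) and 270 and 224 CPM (cured) in preSPO medium, and at 922 and 963 CPM (prion) and 1029 and 886 CPM (cured) in SPO medium. Every SPO library lay above every preSPO library. LEU4 rose, with log2 fold changes of 1.61 in prion (SE 0.228, adjusted p = 0.000548) and 1.96 in cured libraries (SE 0.230, adjusted p = 0.000209). Without the libraries in doubt the values were 1.57 and 1.84, and LEU4 stayed called. On TPM limma gave 0.99 (adjusted p = 0.00564) and 0.96 (adjusted p = 0.00565).

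LYS20 (YDL182W, chromosome IV, 133437 to 134723) encodes a homocitrate synthase, which condenses acetyl-CoA with 2-oxoglutarate at the start of lysine synthesis. It stood at 70.1 and 102 CPM (prion) and 43.1 and 70.2 CPM (cured) in preSPO medium, and at 207 and 217 CPM (prion) and 247 and 254 CPM (cured) in SPO medium. Again no preSPO library reached the level of an SPO library. LYS20 rose, with log2 fold changes of 1.30 in prion (SE 0.263, adjusted p = 0.00343) and 2.14 in cured libraries (SE 0.269, adjusted p = 0.000294). Without the libraries in doubt the values were 1.25 and 2.16. On TPM limma gave 0.69 in prion libraries (adjusted p = 0.0716), which is no call, and 1.17 in cured libraries (adjusted p = 0.00162).

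TRP1 (YDR007W, chromosome IV, 461842 to 462516) encodes phosphoribosylanthranilate isomerase, an enzyme in the middle of the tryptophan chain. It stood at 29.7 and 44.6 CPM (prion) and 34.7 and 37.6 CPM (cured) in preSPO medium, and at 83.9 and 102 CPM (prion) and 81.9 and 99.9 CPM (cured) in SPO medium, with no overlap between media. TRP1 rose, with log2 fold changes of 1.32 in prion (SE 0.223, adjusted p = 0.00134) and 1.33 in cured libraries (SE 0.222, adjusted p = 0.00117). On TPM limma called it in neither state (0.71, adjusted p = 0.0568 in prion, and 0.33, adjusted p = 0.367 in cured libraries). The estimated counts of TRP1 were not whole, as arises where reads are divided by estimate between targets. The other target was not sought. ILV6 (YCL009C, chromosome III, 104619 to 105548) encodes the regulatory subunit of acetolactate synthase, through which valine inhibits the enzyme. It stood at 223 and 298 CPM (prion) and 161 and 174 CPM (cured) in preSPO medium, and at 407 and 453 CPM (prion) and 451 and 480 CPM (cured) in SPO medium, again with no overlap. ILV6 rose, with log2 fold changes of 0.72 in prion (SE 0.199, adjusted p = 0.0145) and 1.47 in cured libraries (SE 0.203, adjusted p = 0.000450). Without the libraries in doubt the prion call was lost (log2 fold change 0.63, adjusted p = 0.127). With library size scaling it was lost too (adjusted p = 0.0570). On TPM limma called ILV6 in neither state (0.11, adjusted p = 0.763 in prion, and 0.48, adjusted p = 0.140 in cured libraries).

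**Figure D3:**
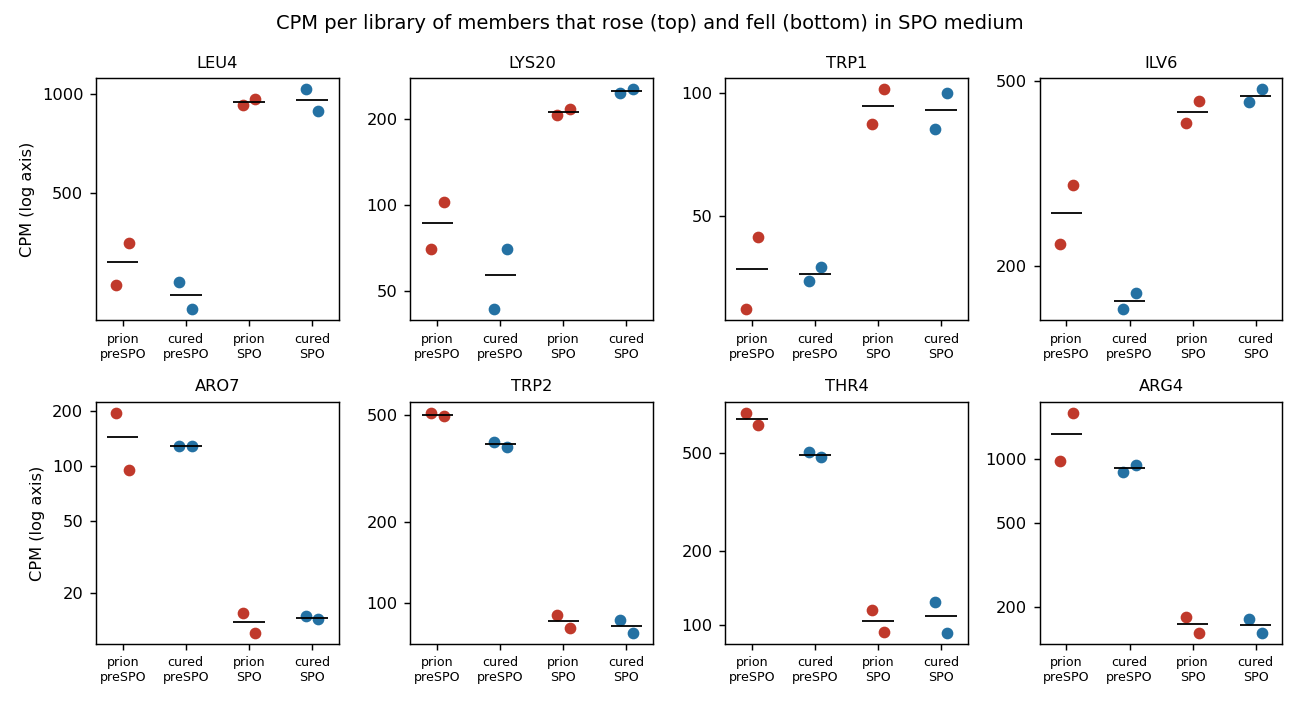
CPM on a log axis (vertical) of 8 members in each library, by state and medium (horizontal); red points are prion and blue points cured libraries, and bars are group means of 2 libraries. LEU4, LYS20, TRP1 and ILV6 lie higher, and ARO7, TRP2, THR4 and ARG4 lower, in all 4 SPO libraries than in any preSPO library.

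Here and below, a pair of values in parentheses is the log2 fold change in prion and then in cured libraries. In the branched-chain pathways, ILV2, the catalytic subunit of acetolactate synthase that works with Ilv6, was called in the opposite direction to its regulatory subunit. It stood at 396 and 397 CPM (prion) and 377 and 367 CPM (cured) in preSPO medium, and at 197 and 148 CPM (prion) and 243 and 167 CPM (cured) in SPO medium. ILV2 fell, with log2 fold changes of -1.20 in prion (SE 0.232, adjusted p = 0.00268) and -0.87 in cured libraries (SE 0.230, adjusted p = 0.0114). Of the later enzymes, ILV3, the dihydroxyacid dehydratase, fell in both states (-1.39 and -0.76), as did ILV1, the threonine deaminase (-0.96 and -0.54). LEU1, the isopropylmalate isomerase that follows Leu4, stood at 298 and 305 CPM (prion) and 447 and 290 CPM (cured) in preSPO medium, and at 147 and 163 CPM (prion) and 155 and 123 CPM (cured) in SPO medium and fell in both states (-0.96 and -1.41). LEU9, the minor isozyme of LEU4, fell in prion libraries (log2 fold change -1.37, adjusted p = 0.00943) and was not called in cured libraries (log2 fold change -0.27, adjusted p = 0.527). ILV5, the reductoisomerase, was not called in prion libraries (log2 fold change -0.10, adjusted p = 0.691) and rose in cured libraries (log2 fold change 0.60, adjusted p = 0.0317), a call that was lost without the libraries in doubt (adjusted p = 0.272).

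Several lysine genes after homocitrate synthase were called lower. LYS4, the homoaconitase, fell (-0.89 and -0.62), as did LYS12, the homoisocitrate dehydrogenase (-1.42 and -0.78), and LYS9, which forms saccharopine (-1.68 and -1.09). LYS9 stood at 272 and 321 CPM (prion) and 211 and 220 CPM (cured) in preSPO medium, and at 106 and 79.5 CPM (prion) and 108 and 94.0 CPM (cured) in SPO medium, so that the media did not overlap. LYS1, the last enzyme, fell in prion libraries (log2 fold change -1.52, adjusted p = 0.00119) and was not called in cured libraries (log2 fold change -0.47, adjusted p = 0.135). LYS21, the other homocitrate synthase gene, was not called in prion libraries (log2 fold change -0.45, adjusted p = 0.0596) and fell in cured libraries (log2 fold change -0.60, adjusted p = 0.0188), the latter not called without the libraries in doubt (adjusted p = 0.0715). LYS14, the activator of the pathway, fell in both states (log2 fold change -1.24 in cured libraries, adjusted p = 0.00371 in prion and 0.00114 in cured). LYS5, which encodes the enzyme that activates Lys2, was not called in prion libraries (log2 fold change -0.21, adjusted p = 0.361) and fell in cured libraries (log2 fold change -0.57, adjusted p = 0.0287), a call lost without the libraries in doubt (adjusted p = 0.237).

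Aromatic genes held the steepest fall of all members. ARO7 (YPR060C, chromosome XVI, 674861 to 675631) encodes chorismate mutase, which leads chorismate towards phenylalanine and tyrosine. It stood at 194 and 94.5 CPM (prion) and 128 and 128 CPM (cured) in preSPO medium, and at 15.5 and 12.2 CPM (prion) and 15.0 and 14.5 CPM (cured) in SPO medium. Its prion preSPO replicates lay far apart, but each was above all SPO libraries. ARO7 fell, with log2 fold changes of -3.38 in prion (SE 0.327, adjusted p = 8.67e-05) and -3.12 in cured libraries (SE 0.326, adjusted p = 0.000119), and the values were -3.22 and -3.14 without the libraries in doubt. ARO1, which encodes a single protein for several successive steps to chorismate, fell (-1.21 and -1.21), and so did ARO2, chorismate synthase (-1.20 and -0.61), whose cured call was lost without the libraries in doubt (adjusted p = 0.123).

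Genes of aromatic amino acid breakdown fell as well. ARO9, an aminotransferase, and ARO10, a decarboxylase, act in the Ehrlich pathway, which turns aromatic amino acids into fusel alcohols, and both are activated by Aro80. ARO9 had the highest TPM of any member in any library, 789 in prion preSPO replicate 1. It stood at 1955 and 968 CPM (prion) and 1143 and 905 CPM (cured) in preSPO medium, and at 176 and 190 CPM (prion) and 213 and 164 CPM (cured) in SPO medium, and fell, with log2 fold changes of -3.00 in prion (SE 0.352, adjusted p = 0.000212) and -2.44 in cured libraries (SE 0.344, adjusted p = 0.000506). ARO10 stood at 911 and 441 CPM (prion) and 798 and 672 CPM (cured) in preSPO medium, and at 148 and 165 CPM (prion) and 223 and 186 CPM (cured) in SPO medium, and fell (-2.11 and -1.85). ARO80 fell (-0.64 and -0.79), and both calls were lost without the libraries in doubt (adjusted p = 0.153 and 0.0517). ARO8, an aminotransferase of both synthesis and breakdown, fell (-2.04 and -1.76).

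In the tryptophan chain TRP2, which encodes a subunit of anthranilate synthase, the first enzyme, fell while TRP1 rose. TRP2 (YER090W, chromosome V, 337949 to 339472) stood at 508 and 495 CPM (prion) and 397 and 381 CPM (cured) in preSPO medium, and at 90.2 and 80.5 CPM (prion) and 85.9 and 77.2 CPM (cured) in SPO medium. It had the smallest adjusted p of the members in both states and fell, with log2 fold changes of -2.55 in prion (SE 0.179, adjusted p = 1.99e-05) and -2.26 in cured libraries (SE 0.177, adjusted p = 3.19e-05). TRP3, which also takes part in the first step, fell (-1.35 and -1.32). TRP5, the tryptophan synthase, fell in prion libraries (log2 fold change -1.14, adjusted p = 0.00243) and was not called in cured libraries (log2 fold change -0.29, adjusted p = 0.275), while TRP4, the phosphoribosyltransferase, was not called in prion libraries (log2 fold change -0.48, adjusted p = 0.0525) and fell in cured libraries (log2 fold change -0.72, adjusted p = 0.00945).

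Histidine genes fell together except for HIS6. HIS1, which encodes ATP phosphoribosyltransferase, the first enzyme, stood at 682 and 508 CPM (prion) and 572 and 715 CPM (cured) in preSPO medium, and at 115 and 109 CPM (prion) and 107 and 109 CPM (cured) in SPO medium. It fell, with log2 fold changes of -2.41 in prion (SE 0.222, adjusted p = 6.84e-05) and -2.57 in cured libraries (SE 0.224, adjusted p = 4.99e-05). HIS4, whose protein has several enzyme activities, fell (-2.63 and -2.01), as did HIS5, an aminotransferase (-2.28 and -2.04), HIS7 (-1.57 and -1.97) and HIS2, the phosphatase (-1.46 and -1.25). HIS6, an isomerase in the middle of the chain, rose in prion libraries (log2 fold change 0.50, adjusted p = 0.0297), a call lost without the libraries in doubt (adjusted p = 0.199), and was not called in cured libraries (log2 fold change 0.23, adjusted p = 0.259). HIS3, set aside as a marker that BY4743 keeps in part, had log2 fold changes of -1.71 and -1.54.

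Of the arginine genes, ARG4 (YHR018C, chromosome VIII, 140011 to 141402) encodes argininosuccinate lyase, the last enzyme, and stood at 987 and 1657 CPM (prion) and 874 and 944 CPM (cured) in preSPO medium, and at 180 and 151 CPM (prion) and 176 and 151 CPM (cured) in SPO medium. It fell, with log2 fold changes of -3.00 in prion (SE 0.288, adjusted p = 8.54e-05) and -2.48 in cured libraries (SE 0.282, adjusted p = 0.000181). ARG7, the ornithine acetyltransferase, fell (-2.46 and -2.19), as did ARG8, the acetylornithine aminotransferase (-1.39 and -0.56), whose cured call was lost without the libraries in doubt (adjusted p = 0.0546). ARG3, ornithine carbamoyltransferase, stood at 39.8 and 70.9 CPM (prion) and 36.5 and 44.0 CPM (cured) in preSPO medium, and at 99.4 and 74.2 CPM (prion) and 118 and 78.9 CPM (cured) in SPO medium. Both SPO libraries were above both preSPO libraries within each state. ARG3 rose in cured libraries (log2 fold change 1.28, adjusted p = 0.00730) and was not called in prion libraries (log2 fold change 0.64, adjusted p = 0.103). On TPM limma did not call it in cured libraries (0.28, adjusted p = 0.506). ARG2, acetylglutamate synthase and the first enzyme, fell (-0.77 and -1.17), and its prion call was lost without the libraries in doubt (adjusted p = 0.0639). ARG56, whose protein is cut into enzymes of the next steps, was not called in prion libraries (log2 fold change -0.65, adjusted p = 0.0968) and was not called in cured libraries (log2 fold change 0.084, adjusted p = 0.824). ARG1, argininosuccinate synthetase, fell in prion libraries (log2 fold change -1.30, adjusted p = 0.0276) and was not called in cured libraries (log2 fold change -0.55, adjusted p = 0.278), the former not called without the libraries in doubt (adjusted p = 0.120).

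In the threonine chain the last enzyme fell most. THR4 (YCR053W, chromosome III, 216697 to 218241), threonine synthase, stood at 730 and 655 CPM (prion) and 506 and 483 CPM (cured) in preSPO medium, and at 115 and 93.1 CPM (prion) and 124 and 92.7 CPM (cured) in SPO medium. It fell, with log2 fold changes of -2.74 in prion (SE 0.223, adjusted p = 3.82e-05) and -2.20 in cured libraries (SE 0.219, adjusted p = 9.33e-05). HOM3, aspartate kinase and the first enzyme, fell (-1.28 and -0.96), as did HOM6, homoserine dehydrogenase (-0.53 and -0.63), whose calls were lost without the libraries in doubt (adjusted p = 0.260 and 0.111). THR1, homoserine kinase, was not called in prion libraries (log2 fold change -0.46, adjusted p = 0.0621) and was not called in cured libraries (log2 fold change 0.30, adjusted p = 0.195).

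The 6 regulators counted here include ARG82, an inositol polyphosphate kinase that also acts with Arg80 and Arg81. Their medians were -0.014 in prion and -0.55 in cured libraries, beside 0.0042 and 0.032 over all genes. Of all genes tested, 27.1% fell and 26.2% rose in prion and 28.6% fell and 28.6% rose in cured libraries. Of the regulators, 2 fell and 1 rose in prion libraries and 3 fell in cured libraries, counts not tested against those shares. Without the libraries in doubt 1 fell and 0 rose in prion and 1 fell in cured libraries. ARG82 rose in prion libraries (log2 fold change 0.95, adjusted p = 0.0125), a call lost without the libraries in doubt (adjusted p = 0.0601) and on TPM by limma (adjusted p = 0.430). ARG80 was not called in prion libraries (log2 fold change 0.47, adjusted p = 0.102) and was not called in cured libraries (log2 fold change 0.34, adjusted p = 0.207). ARG81 was not called in prion libraries (log2 fold change -0.27, adjusted p = 0.211) and fell in cured libraries (log2 fold change -0.52, adjusted p = 0.0306), the latter not called without the libraries in doubt (adjusted p = 0.0758). LEU3 was not called in prion libraries (log2 fold change 0.25, adjusted p = 0.430) and was not called in cured libraries (log2 fold change -0.58, adjusted p = 0.0729). The 47 synthesis enzymes had medians of -1.21 and -0.72, with 33 and 31 lower and 6 and 6 higher. Of these, 29 and 25 were lower and 3 and 5 higher without the libraries in doubt.

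Isozyme genes of the same step were then set against each other within each library, as ratios of TPM. LYS20 over LYS21 was 0.542 and 0.714 (prion) and 0.286 and 0.378 (cured) in preSPO medium and 2.07 and 2.17 (prion) and 2.06 and 2.46 (cured) in SPO medium. LYS21 was thus the higher of the pair in every preSPO library and LYS20 in every SPO library. LEU4 over LEU9 was 8.73 and 8.93 (prion) and 12.0 and 12.2 (cured) in preSPO medium and 53.3 and 96.3 (prion) and 46.8 and 68.4 (cured) in SPO medium. ARO3 over ARO4, genes of the first aromatic step, was 4.18 to 9.16 in the 4 preSPO and 2.58 to 3.27 in the 4 SPO libraries.

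These 3 ratios did not overlap between the media, with or without the libraries in doubt. Each had p = 0.0286 by a two-sided exact permutation test of 4 SPO against 4 preSPO libraries, the smallest p this design can give, and 0.0476 after Benjamini-Hochberg adjustment over the 5 pairs tested. That test treats the 8 libraries as exchangeable, although the labels tie them to states and to cultures sampled in both media. A permutation within each state, added after the data were seen, gave each of the 3 an exact p of 0.0556 and one paired by culture an exact p of 0.125, the smallest p each allows, so the difference passes no threshold of 0.05 once state or culture is kept. With all libraries exchangeable, ARO9 over ARO8 (exact permutation p = 0.0571, adjusted 0.0714) and SER33 over SER3 (exact permutation p = 0.429, adjusted 0.429) did not pass. Reads of near-identical pairs are divided by estimate, which bears on LYS20 and LYS21, whose coding sequences are 88.3% identical and share 46.5% of the 31-base words of LYS20. For LEU4 and LEU9 the identity is 76.9% with 1.69% of the words of LEU4 shared, and for SER33 and SER3 it is 82.6% with 4.35%. Neither ARO pair shares a word.

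**Figure D4:**
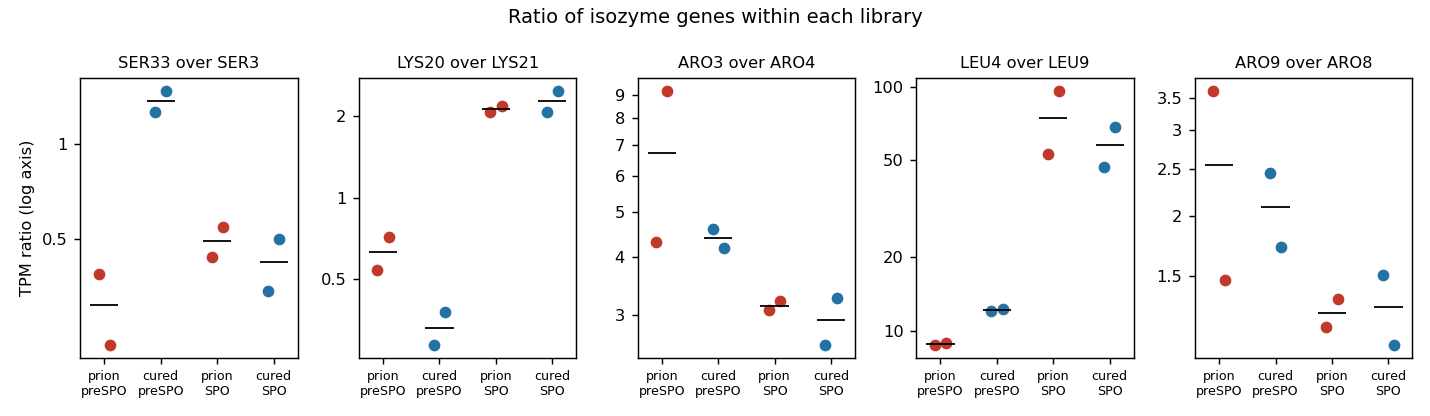
Ratio of TPM on a log axis (vertical) for 5 isozyme pairs within each library, by state and medium (horizontal); red points are prion and blue points cured libraries, and bars are group means of 2 libraries. LYS20 over LYS21 is below 1 in the preSPO and above 2 in the SPO libraries, and SER33 over SER3 exceeds 1 in the cured preSPO libraries alone.

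Of 22 genes of the same pathways that the name rule does not reach, 14 fell and 1 rose in prion libraries, with a median of -0.79, and 13 fell and 5 rose in cured libraries, with a median of -0.81. Leaving out the libraries in doubt, 9 fell and 1 rose in prion and 10 fell and 2 rose in cured libraries. BAT2 and BAT1, the branched-chain aminotransferases, fell (-1.74 and -2.23 for BAT2, -1.82 and -1.45 for BAT1). GDH3, a glutamate dehydrogenase, was at 29.3 to 57.0 CPM in preSPO and 1440 to 1948 CPM in SPO libraries and rose (5.28 and 5.82). Of 9 genes of amino acid breakdown, 6 fell and 1 rose in prion and 6 fell and 2 rose in cured libraries, among them CHA1, the serine and threonine deaminase, which fell (-4.04 and -3.26). The counts of both lists with all libraries stand beside 27.1% of all genes that fell and 26.2% that rose in prion libraries. In cured libraries 28.6% of all genes fell and 28.6% rose. BAT1, BAT2, GDH3 and CHA1 are named after their values were seen.

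The second comparison set cured against prion libraries. In preSPO medium 1 of the 58 members was called, SER33, higher in cured libraries, where 0.457% of all genes were called higher and 0.473% lower. By edgeR 21 members had an unadjusted p under 0.05, as did 1264 of the 6346 genes tested. DESeq2 called 5 members, namely ARG82, SER1 and SER33 higher and ILV6 and THR1 lower, and 441 of all genes. The members' median was -0.26, beside -0.0048 over all genes. By pathway the median was -0.49 for THR, -0.47 for ILV, -0.39 for LYS, -0.37 for ARG, -0.22 for ARO, -0.083 for TRP, 0.012 for HIS, 0.29 for LEU and 0.59 for SER.

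SER33 (YIL074C, chromosome IX, 221081 to 222490) and SER3 (YER081W, chromosome V, 322686 to 324095) encode the isozymes of 3-phosphoglycerate dehydrogenase, which starts serine synthesis from glycolysis. SER33 stood at 79.1 and 48.5 CPM (prion) and 187 and 187 CPM (cured) in preSPO medium, and at 31.9 and 33.3 CPM (prion) and 34.9 and 34.5 CPM (cured) in SPO medium. Both cured preSPO libraries lay above all others. SER33 was higher in cured than in prion preSPO libraries by 1.56 on the log2 scale (SE 0.221, adjusted p = 0.0297). In SPO medium the difference was 0.089 (adjusted p = 1).

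SER3 stood at 205 and 212 CPM (prion) and 147 and 127 CPM (cured) in preSPO medium, and at 72.8 and 61.1 CPM (prion) and 103 and 68.9 CPM (cured) in SPO medium. In preSPO medium its cured libraries lay below its prion libraries, with a log2 difference of -0.60 that was not called (adjusted p = 0.185). SER33 over SER3 in TPM was 1.27 and 1.48 in cured and 0.386 and 0.229 in prion preSPO libraries, a difference that 2 against 2 libraries cannot test below an exact permutation p of 0.333. SER1, phosphoserine aminotransferase, had a log2 difference of 0.66 (adjusted p = 0.113) and SER2, phosphoserine phosphatase, 0.51 (adjusted p = 0.186).

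The promoters of this pair are shown because its members stand apart between the states in preSPO medium. They cover the same window as above, and capitals mark TGACTC or its reverse complement, which SER33 holds and SER3 does not in these 300 bases.
SER33 (chrIX:222441-222740, minus strand): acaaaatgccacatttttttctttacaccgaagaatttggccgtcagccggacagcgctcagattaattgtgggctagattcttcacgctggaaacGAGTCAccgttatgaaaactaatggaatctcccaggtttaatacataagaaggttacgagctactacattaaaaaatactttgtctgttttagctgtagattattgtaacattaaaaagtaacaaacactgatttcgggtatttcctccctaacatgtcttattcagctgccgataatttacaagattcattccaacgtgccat
SER3 (chrV:322436-322735, plus strand): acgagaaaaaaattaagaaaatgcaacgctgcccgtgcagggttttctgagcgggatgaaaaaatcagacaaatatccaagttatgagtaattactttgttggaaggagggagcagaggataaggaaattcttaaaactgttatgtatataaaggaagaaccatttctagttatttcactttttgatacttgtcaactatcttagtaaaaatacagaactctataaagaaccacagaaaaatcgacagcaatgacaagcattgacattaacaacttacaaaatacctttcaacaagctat

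The SER33 call was lost in edgeR without prion preSPO replicate 2 (adjusted p = 0.0737), cured preSPO replicate 1 (0.0988), cured preSPO replicate 2 (0.136), prion SPO replicate 1 (0.0892) or prion SPO replicate 2 (0.0913), and without both libraries in doubt (0.0666). Its log2 difference lay between 1.25 and 1.95 under all settings. MET17, at 0 and 1 counts in the cured preSPO libraries, differs between the same groups, so the state and the MET17 level cannot be told apart. The reading frame of SER3 overlaps by 77 bases the noncoding transcript YNCE0017W on the same strand, and reads there cannot be assigned to either. Among the 22 related genes, SHM1, a mitochondrial serine hydroxymethyltransferase named after its values were seen, was called lower in cured preSPO libraries (log2 difference -0.99, adjusted p = 0.0400).

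**Figure D5:**
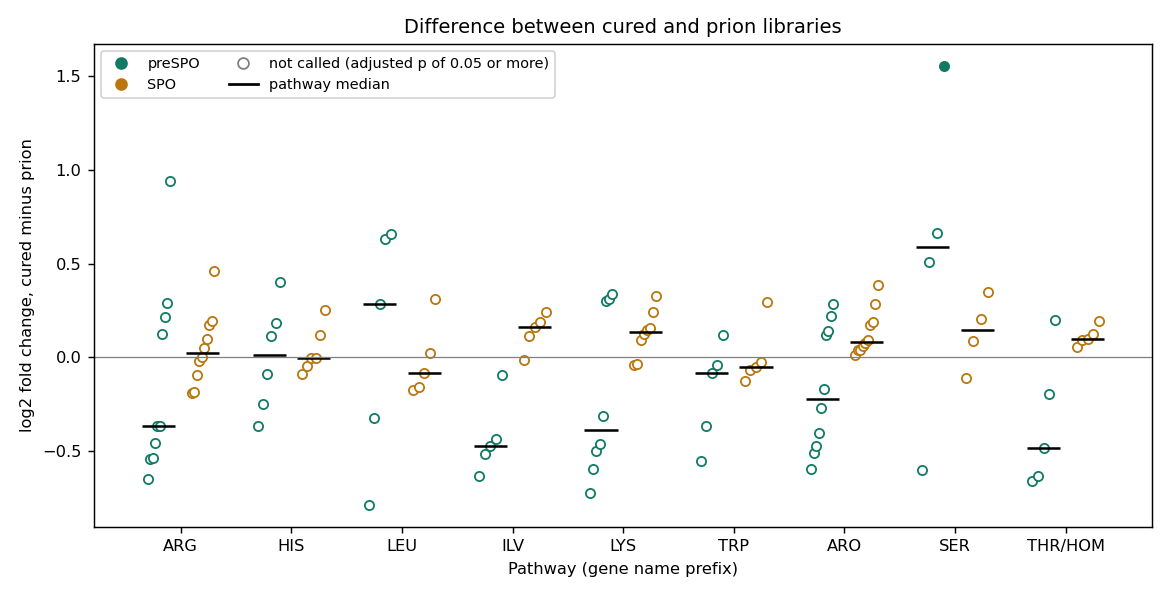
Log2 fold change of cured minus prion (vertical axis) for each of the 58 members by pathway (horizontal axis), in preSPO (green) and SPO medium (orange); the filled point was called, open points were not, and black bars are pathway medians. SER33, at 1.56 in preSPO medium, is the filled point, and the SPO values lie between -0.19 and 0.46.

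In SPO medium edgeR called no member between the states, beside 0.0315% of all genes called. There 1 member had an unadjusted p under 0.05, as did 154 of the 6346 genes tested, and DESeq2 called 0 members and 15 of all genes. The members' log2 differences ran from -0.19 for ARG82 to 0.46 for ARG8, with a median of 0.09 beside 0.014 over all genes. Because the labels of 2 of these 4 libraries are in doubt, the count of calls does not show that the states were alike.

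For the difference between the responses to SPO medium, edgeR gave 15 members with an unadjusted p under 0.05 and called none. Of the 6346 genes tested, 791 had such a p. DESeq2 called SER33 alone of the members, and 133 of all genes. SER33 had the value farthest from 0, at -1.47 (SE 0.312, adjusted p = 0.161). It fell by 2.43 in cured libraries (adjusted p = 7.13e-05), and fell by 0.97 in prion libraries (adjusted p = 0.00633), where the call was lost without the libraries in doubt (adjusted p = 0.0513). SER3 fell in both states (-1.64 and -0.69), with a difference of 0.95 (adjusted p = 0.278).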

How the data were processed

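Poly(A) RNA of 8 libraries was analysed, 2 in each of 4 groups taken from the sample titles and treatments. Kallisto and build R64 are named in the submitters' processing notes, with no version. The deposited estimated counts were made by the authors with kallisto, per the submitters' processing notes, and tests ran on them after rounding. The deposited TPM values come from the same tables of the authors. Lengths are coding lengths (6711 of 6713 divisible by 3). Of the 61 members, 52 had whole counts in all 8 libraries (tolerance 0.001). Symbols came from the RefSeq table of R64, in which 6026 targets matched a locus tag.

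Tests used edgeR 4.0.16 (glmQLFit and glmQLFTest, TMM, filterByExpr) in R 4.3.3. All 8 libraries entered 1 model of the group means (4 residual degrees of freedom). Tests were two-sided, with Benjamini-Hochberg adjustment across the 6346 genes tested. SE is the log2 fold change over the square root of F. The procedure was tested on simulated data. Alternatives were DESeq2 1.42.0, limma 3.58.1 on log2(TPM + 1), other scalings and filters, blocks and left-out libraries. Nothing beyond their labels says that replicates are separate cultures, so p-values measure the spread between these samples. Replicates differed beyond counting noise (chi-square per degree of freedom 34.8 to 163).

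Genes were named by a rule: members called between states, the highest and lowest mean response of each pathway, isozyme pairs, regulators, markers, GCN4 and MET17. Other members are named as the rest of their pathway, after their values were seen. Members and lists were chosen with earlier results of these data known. The labels' protocol takes preSPO and SPO samples from a single culture, and deviations of same-numbered samples from their group means correlated at 0.0714 in prion and 0.316 in cured libraries.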

Additional observations from a re-analysis of the deposited data

How the results depend on the processing

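Counts of called members stayed within 1.5 times of the reported ones under RLE scaling, both other filters and a robust fit. The exceptions elsewhere were these. Members higher in SPO medium numbered 4 with library size scaling, 1 on log2 TPM and 3 without both libraries in doubt in the prion state, and 2 on log2 TPM in the cured state. Between states in preSPO medium DESeq2 called 5 (3 higher, 2 lower), and 0 were called without both libraries in doubt. DESeq2 called 1 member, lower, in the interaction. Leaving out each library in turn gave 3 to 7 higher and 33 to 39 lower (36 to 46 in all) in prion SPO, 5 to 6 higher and 24 to 39 lower (30 to 45 in all) in cured SPO, 0 to 2 higher and 0 to 3 lower (0 to 5 in all) between states in preSPO medium, 0 to 0 between states in SPO medium and 0 to 1, lower, in the interaction. Of the members called with all libraries, leaving out 1 library lost 9 calls in the prion response without prion SPO replicate 2, 5 without replicate 1 and 0 to 3 without any other library. In the cured response it lost 16 without cured SPO replicate 2 (ARG8, ARG81, ARO2, ARO3, ARO5, ARO80, HOM3, HOM6, ILV1, ILV2, ILV3, LEU5, LYS21, LYS4, SER3, TRP4), 13 and 11 without cured preSPO replicates 2 and 1, and 0 to 5 without any other. Those lost without prion SPO replicate 2 were ARG82, HIS6, ILV6, SER1, ARG1, ARO80, HOM3, HOM6, LEU9.

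Adding replicate number to the model (replicate block) gave 38 lower and 7 higher in prion and 39 and 6 in cured libraries, and a block by culture 38 and 7, and 40 and 6. Neither moved a count by over 1.5 times. Of the 58 members, responses that turned in sign on log2 TPM were, in prion libraries, HIS6 (-0.12), SER1 (-0.092), ARG80 (-0.16), LEU3 (-0.34) and LEU5 (-0.44), and in cured libraries ILV5 (-0.39), HIS6 (-0.72), THR1 (-0.66), ARG80 (-0.61) and ARG56 (-0.87). With library size scaling they were LEU5 (-0.027) in prion and HIS6 (-0.17), THR1 (-0.084), ARG80 (-0.065) and ARG56 (-0.27) in cured libraries. LEU9 in cured libraries ran from -0.65 to 0.10 with 1 library left out, the last without cured SPO replicate 2. The cause was not tested.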
